A study of Rattus norvegicus with 63 samples.

Results

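Sgk1, the serum- and glucocorticoid-induced kinase, was followed in rat kidney together with 5 genes of the aldosterone-sensitive sodium pathway: its paralog Sgk2, the epithelial sodium channel subunit Scnn1a, the ubiquitin ligase Nedd4l, the mineralocorticoid receptor Nr3c2 and the steroid-inactivating enzyme Hsd11b2. Every probe set that carries the symbol of one of these genes was taken, from both array types and whatever its values. These 6 of the 10621 genes named on the arrays had 13 of 24722 probe sets, with 7 of 15923 on the main array type and 6 of 8799 on the other, where Nedd4l was not among the named probe sets. A probe set is a group of short probes that together measure a transcript. Of the main-type probe sets 6, and of the second-type ones 5, were bright enough to be tested, and the dimmer probe sets of Scnn1a (main type) and Nr3c2 (second type) are described by their values alone.

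Total RNA of whole rat kidney was hybridised, from untreated rats at 0 h and from rats killed at 16 times between 0.25 and 72 h after they were injected with the synthetic glucocorticoid methylprednisolone. There were 52 libraries on the main array type, 4 at 0 h and 3 at each of 0.25, 0.5, 0.75, 1, 2, 4, 5, 5.5, 6, 7, 8, 12, 18, 30, 48 and 72 h, and 10 on the second type, where 0 h has 4, 2 h has 3 and 6 h has 3. The labels give no dose, strain, sex, age or hour of day, and the only untreated rats are those of 0 h, which means that injection, time since it and hour of day cannot be told apart. Whether each number in a title stands for a rat of its own is not stated. The p-values therefore measure the spread among these samples, which may be technical.

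In the distal part of the nephron, sodium enters principal cells through the epithelial sodium channel. Nedd4l tags the channel for removal from the membrane, Sgk1 phosphorylates Nedd4l and so keeps channels at the surface, and aldosterone raises Sgk1 and Scnn1a through the mineralocorticoid receptor. Glucocorticoids bind that receptor too, and Hsd11b2 inactivates the natural ones inside aldosterone target cells; Sgk1 is also a textbook target of the glucocorticoid receptor in many cell types.

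Of the 6 genes Sgk1 had the widest range of time means, and the sequences from which its transcription starts are shown for that reason. RefSeq (rat assembly GRCr8, used for names and these sequences only) lists 3 start windows for Sgk1, all on the minus strand of chromosome 1, each running from 250 bases before a start to 50 bases after it. They are written 5' to 3' with the letters TATAAA, the core of the TATA box, in capitals.
Sgk1 start a, chr1:24807182-24807481: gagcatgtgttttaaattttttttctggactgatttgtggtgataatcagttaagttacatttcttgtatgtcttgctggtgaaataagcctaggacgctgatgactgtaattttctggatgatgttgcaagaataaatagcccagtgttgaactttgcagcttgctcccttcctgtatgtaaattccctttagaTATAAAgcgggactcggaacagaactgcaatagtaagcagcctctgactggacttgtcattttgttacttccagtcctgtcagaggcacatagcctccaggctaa
Sgk1 start b, chr1:24805521-24805820: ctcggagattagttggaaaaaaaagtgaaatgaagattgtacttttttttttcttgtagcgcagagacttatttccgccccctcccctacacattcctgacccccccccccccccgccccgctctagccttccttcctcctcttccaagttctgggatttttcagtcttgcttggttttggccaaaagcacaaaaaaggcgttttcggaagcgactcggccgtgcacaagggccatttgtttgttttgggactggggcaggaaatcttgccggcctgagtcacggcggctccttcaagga
Sgk1 start c, chr1:24804782-24805081: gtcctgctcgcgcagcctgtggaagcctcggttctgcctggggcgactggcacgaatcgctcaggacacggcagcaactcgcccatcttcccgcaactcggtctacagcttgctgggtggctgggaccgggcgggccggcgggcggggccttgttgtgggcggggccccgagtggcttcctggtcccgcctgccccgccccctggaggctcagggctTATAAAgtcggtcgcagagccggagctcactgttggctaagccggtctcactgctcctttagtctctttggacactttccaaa
The TATAAA letters stood in 2 of the 3 windows, and on either strand in 14.2% of all 33469 windows in the table. The windows differed in base composition, with a G and C share of 40.7%, 51.7% and 66.0%. The hexamer TGTTCT, bound by the glucocorticoid receptor, was searched on both strands (reverse complement AGAACA) and was in none of the 3, against 20.7% of all windows. The full palindrome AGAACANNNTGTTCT, which contains that hexamer on each strand, was in none of them and in 5 of all windows (0.0149%). These counts describe the letters in 300 bases alone. Of the 6 genes, 2 matched the table, Sgk1 and Nedd4l, and the single Nedd4l window held none of the 3 motifs.

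Values are signals (intensities scaled per array by the authors), and differences are on the log2(signal + 7.63) scale, which understates the change of dim probe sets. All times entered a joint limma fit, with Benjamini-Hochberg adjustment over the 9520 probe sets tested. A gene is said to have risen or fallen where its adjusted p was below 0.05. Where libraries are said to lie above or below all untreated ones, the share of all probe sets that did so was not counted. The 16 times also formed 5 windows (up to 1 h, 2 to 4 h, 5 to 8 h, 12 to 18 h, and 30 h onward), each set against the same 4 libraries at 0 h. Across all probe sets tested, 0.62% rose and 0.042% fell at 0.25 to 1 h, 5.17% and 4.8% at 2 to 4 h, 4.98% and 4.73% at 5 to 8 h, and 0.284% and 0.105% at 12 to 18 h. At 30 to 72 h 0 rose and 0 fell by limma (0% each), with 517 at an unadjusted p under 0.05. Of the 6 members tested, 1 rose and 0 fell at 0.25 to 1 h, 2 rose and 2 fell at 2 to 4 h, 2 rose and 1 fell at 5 to 8 h, 1 rose and 0 fell at 12 to 18 h, and none differed at 30 to 72 h. All 6 passed the moderated F test for a difference at any time, as did 16.1% of all probe sets. Without arrays of letter b or c in their titles the F test no longer passed for Nedd4l, Nr3c2 and Hsd11b2 (adjusted p = 0.181, 0.0839 and 0.105, limma). Leaving out 1 library ended it for Nedd4l in 5 of 52 fits (2 h replicate 3, 4 h replicate 2, 8 h replicate 3, and replicates 2 and 3 of 72 h; up to 0.0736) and for Nr3c2 without 4 h replicate 3 (0.0675). In bulk tissue, fewer cells of a type and less RNA per cell cannot be told apart.

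Some libraries stood apart in a signal that belongs to none of these genes. Fga, a fibrinogen chain known from liver and from injured kidney tubules, read between 11.4 and 68.5 at 0 h, between 523 and 2509 in all 6 libraries of 2 and 4 h, and between 26.9 and 100.1 from 12 to 72 h. In 6 libraries it was above 1000 and over 4 times the median of the other libraries of the same time, with signals from 1579 to 4459: 0.25 h replicate 2, 0.5 h replicate 3, 1 h replicate 2, 5 h replicate 2, 7 h replicate 3 and 8 h replicate 1. The other libraries read up to 616 at 0.25 to 1 h and up to 778 at 5 to 8 h. The summed signal of 5 principal cell markers (Aqp2, Aqp3, Aqp4, Avpr2, Fxyd4) was 939 to 1148 at 0 h and 450 to 1542 at 5 to 8 h, where 5 h replicate 2 (450) and 7 h replicate 3 (506) were lowest, and none of the 4 markers tested rose or fell in any window. Of 6 measured adrenal markers 5 lay below the filter, Cyp11b1, Star, Cyp17a1, Th and Dbh, and the summed signal of all 6 was 168 to 232 at 0 h and 127 to 247 at 5 to 8 h. All 8 proximal tubule markers passed the filter, with a summed signal of 18505 to 20986 at 0 h. Of these markers 1 rose and 1 fell at 2 to 4 h, and likewise at 5 to 8 h. Their sums were 16171 to 22243 and 15543 to 23189 in these windows, lowest in 7 h replicate 3. At 2 to 4 h 3 of 4 podocyte and 3 of 5 endothelial markers fell, with sums of 498 to 672 and 806 to 1037 against 788 to 1086 and 1241 to 1605 at 0 h. In the same window 3 of 6 macrophage and neutrophil markers rose, from a sum over 8 genes of 1117 to 1369 at 0 h to 1845 to 2475. At 5 to 8 h 1 podocyte and 2 endothelial markers fell and 2 macrophage and neutrophil markers rose, with sums of 428 to 734, 656 to 1572 and 1299 to 2742. The part of these cell types in the results was not tested. What part the high-Fga libraries have in the results was not tested, but each window was also fitted without them. The rule compares libraries of the same time, and it marked none of 2 or 4 h. That fit therefore kept all 6 libraries of 2 and 4 h, and it left the differences of 2 to 4 h from 0 h unchanged.

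Sgk1 rose within 0.25 h, stayed high through 8 h and was back at the untreated level by 30 h. It read 473, 429, 403 and 720.5 in the 4 untreated libraries, and 1031, 1425 and 2652 at 0.25 h. At 1 h it read 2952, 2441 and 3534. All libraries of these times lay above the highest untreated library, and the 0.25 h libraries were the most spread of any time up to 8 h.

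The highest signals were reached at 5 and 5.5 h. Sgk1 read 3135 (the mean of 2 arrays of replicate 1, which gave 2916 and 3370), 3423 and 3807 at 5 h and 3369, 3851 and 2982 at 5.5 h. At 8 h it read 2394, 2277 and 2428, at 12 h 1587, 1487 and 732, and at 18 h 872, 827 and 989. Replicate 3 of 12 h was thus close to the highest untreated library, while the 18 h libraries, though lower than the other 2 of 12 h, lay close together. At 30 h Sgk1 read 416, 472 and 363, at 48 h 547, 560 and 504, and at 72 h 521, 469 and 319, so all 9 late libraries lay below the highest untreated one.

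In sum, all 39 libraries from 0.25 to 18 h exceeded the highest of the 4 untreated libraries, and 0 of the 9 later ones did. The share of all probe sets separated in this way was not counted. For Sgk1 the tests gave these values. The difference from 0 h was +1.66 ± 0.22 (SE) at 0.25 h, 3.16-fold, with an adjusted p of 1.84e-05 in limma (n = 3 and 4). It was greatest at 5 h, at +2.79 ± 0.22, 6.89-fold (adjusted p = 5.04e-12, limma), and was +1.27 ± 0.22 at 12 h (adjusted p = 0.00268). At 18 h it was +0.85 ± 0.22 with an adjusted p of 0.127. Sgk1 therefore passed the test at 12 of the 16 times, from 0.25 to 12 h. Of all probe sets tested, 0.0735% rose at 0.25 h and 0.0945% at 12 h. Of those 12 calls, 11 held with any 1 of the 52 libraries left out, and the call at 12 h was lost without 12 h replicate 1 (adjusted p = 0.11).

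By window, Sgk1 differed from 0 h by +2.19 ± 0.17, +2.61 ± 0.19 and +2.52 ± 0.16 in the windows from 0.25 to 8 h, with adjusted p-values of 3.91e-12, 1.04e-13 and 3.71e-15 in limma. At 12 to 18 h the difference was +1.06 ± 0.19 (adjusted p = 0.00154), and at 30 to 72 h it was -0.11 ± 0.17 (adjusted p = 0.97). The 12 to 18 h call was lost when only that window and 0 h entered the fit (adjusted p = 0.0782), and over its 11 alternatives the adjusted p ran from 4.51e-05 to 0.0782. Without the 6 high-Fga libraries the first and the third window gave +2.21 and +2.51, as large as with them.

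The order of Sgk1 levels over the 17 times ran from 5, 5.5, 4, 1 and 2 h at the top to 48, 0, 72 and 30 h at the bottom. Of the 16 neighbours in that order, 12 differed by less than the residual SD of the fit (0.29 on the log2 scale). The widest step, 0.73, lay between 18 and 48 h, and the whole range was 3.03.

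**Figure D1:**
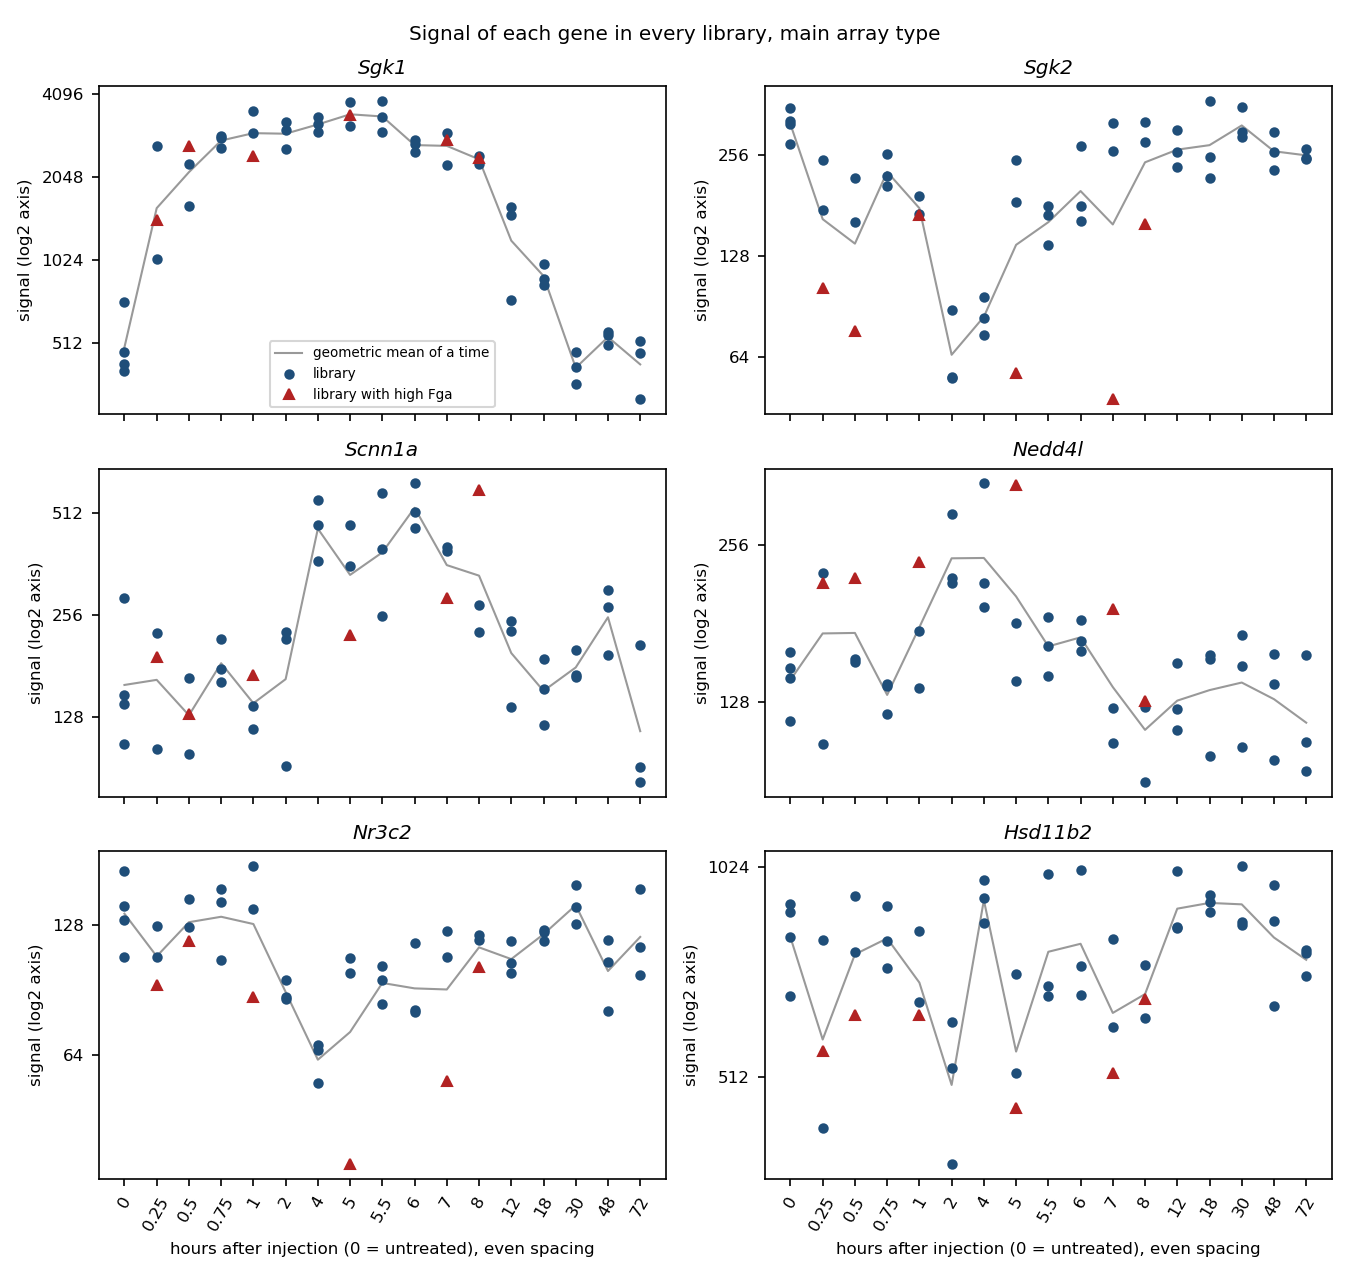
Signal of the 6 genes in all 52 libraries of the main array type. The horizontal axis gives the 17 times in order with even spacing, the vertical axis the signal on a log2 axis, each point is a library, triangles are the 6 libraries with high Fga, and the line joins the geometric means of the times. Sgk1 lies between 1031 and 3851 from 0.25 to 8 h, Sgk2 has its lowest mean at 2 h and Scnn1a its highest at 6 h.

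Sgk2, the paralog that in mammals is most abundant in kidney, liver and pancreas and is not known as a steroid target, moved the other way. It read 317, 277, 323 and 355 at 0 h, 55.5, 55.8 and 88.2 at 2 h and 74.6, 96.2 and 83.4 at 4 h. None of the libraries of 2 and 4 h overlapped the untreated ones, a separation that was not counted over all probe sets. At 7 h it read 319, 264 and 47.8, at 8 h 159.7, 281 and 323, and at 30 h 301, 289.9 and 356. The low values at 7 and 8 h belong to replicate 3 of 7 h and replicate 1 of 8 h, both high in Fga. Of the other libraries of these times 7 h replicate 2, at 264, lay just below the lowest untreated library, and the rest were within the untreated range.

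Sgk2 fell at 2 h by 2.16 ± 0.38 on the log2 scale, 4.47-fold (adjusted p = 2.32e-04, limma), and at 4 h by 1.82 ± 0.38, 3.53-fold (adjusted p = 0.001), and both calls held with any 1 library left out. It passed the test at no other time. Over 2 to 4 h the difference was -1.99 ± 0.32 (adjusted p = 2.77e-05). Between both windows the rise from 2 to 4 h to 5 to 8 h was itself tested, a comparison added after the values were seen, and was +1.19 ± 0.24 (adjusted p = 0.0033). It lost the threshold without the arrays whose titles carry the letter b or c (adjusted p = 0.0587), and over its 10 alternatives the adjusted p ran from 1.37e-11 to 0.0587. In that comparison 1 of the 6 members rose and 1 fell, beside 1.49% and 1.61% of all probe sets.

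In the flanking windows Sgk2 was lower without passing the test, at -0.83 ± 0.29 for 0.25 to 1 h (adjusted p = 0.335, limma) and -0.80 ± 0.28 for 5 to 8 h (adjusted p = 0.0635). Yet 12 of 12 libraries of the first of these windows and 12 of 15 of the second lay below the lowest untreated library. The untreated libraries were close together for Sgk2 (log2 SD of 0.14, against a residual SD of 0.50). How many of all probe sets were separated in this way was not counted. Without the 6 high-Fga libraries, whose Sgk2 signals of 47.8 to 170.3 were each the lowest of their time, both differences were smaller and both passed, at -0.64 (adjusted p = 0.00985) and -0.46 (adjusted p = 0.0195). Without the libraries of 2 and 4 h, the F test over the remaining times gave an adjusted p of 0.267, against 9.03e-04 with them. Of the 16 neighbours in the order of Sgk2 levels, 15 were within the residual SD of 0.50, and the exception was the step from 5 to 4 h.

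The shares of all probe sets that rose at single times were 0.0735%, 0.473%, 0.326% and 0.567% at 0.25, 0.5, 0.75 and 1 h, when Sgk1 alone of the 6 rose. They were 2.61% and 5.71% at 2 and 4 h, when 1 and 3 of the 6 rose, and 3.18%, 3.29%, 3.09%, 2.26% and 1.14% at 5, 5.5, 6, 7 and 8 h, when 1, 2, 2, 2 and 1 did. At 12 h the share was 0.0945%, with 1 member, and at 18 h 0.126%, with none. The shares that fell were 0%, 0.042%, 0.0315% and 0.0315% up to 1 h, with none of the 6. They were 1.51% and 7.73% at 2 and 4 h, with 2 members each, and 3.07% at 5 h with 1. Later they were 2.22%, 2.28%, 1.8%, 0.861%, 0.0735% and 0.063% from 5.5 to 18 h, with none, and 0% rose or fell at 30, 48 or 72 h.

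**Figure D2:**
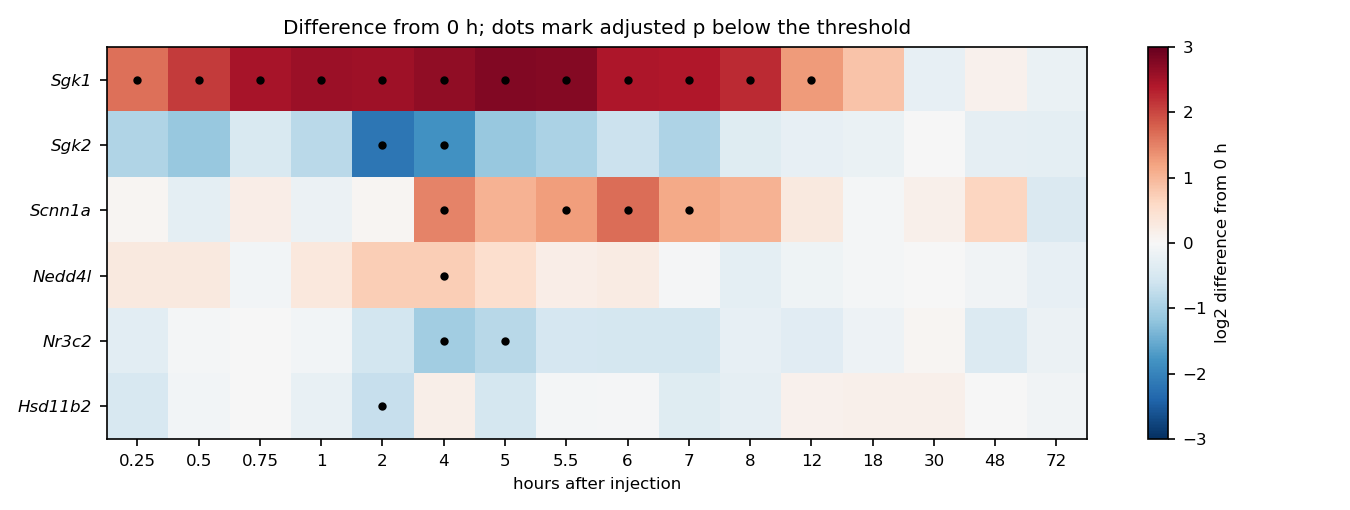
Difference of each gene from 0 h at the 16 later times on the main array type. Columns are hours after injection, rows are the 6 genes, colour gives the log2 difference, and a dot marks an adjusted p below 0.05 in limma. Sgk1 carries 12 dots from 0.25 to 12 h, Sgk2 carries 2 at 2 and 4 h, Scnn1a carries 4 between 4 and 7 h, and no gene carries one after 12 h.

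Within an array, Sgk1 rose relative to each of the other 5 genes in the windows up to 18 h. The log2 difference Sgk1 minus Sgk2 was 0.63 ± 0.29 (SD, n = 4) at 0 h, 5.22 ± 0.22 (n = 6) at 2 to 4 h and 0.71 ± 0.39 (n = 9) at 30 to 72 h, and only its change against 0 h is read, since levels of different probe sets are not comparable. The change was +3.02, +4.60, +3.33 and +1.28 in the windows to 18 h. All libraries of these windows exceeded every untreated one. Exact two-sided permutation tests over libraries, with 25 comparisons adjusted together, gave adjusted p-values of 0.00153, 0.00744, 0.00153 and 0.0132. The smallest p that 6 against 4 libraries allow is 0.00476, which 2 to 4 h reached.

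The change of Sgk1 relative to Nr3c2 had a like course, +2.31, +3.41, +3.05 and +1.30 (adjusted p of 0.00153 to 0.00744 by the exact permutation test). Relative to Scnn1a it narrowed, from +2.25 at 0.25 to 1 h to +1.84 and +1.29 in the windows to 8 h. Relative to Nedd4l it was +1.99, +1.86 and +2.40, and relative to Hsd11b2 +2.39, +2.87 and +2.77, in the windows to 8 h. All 20 comparisons up to 18 h passed the threshold, with adjusted p-values from 0.00153 to 0.0357. They share the Sgk1 values and the untreated libraries, so they largely repeat the rise of Sgk1 and are not 20 independent results. The 12 to 18 h values against Nedd4l (+1.15) and Hsd11b2 (+0.91) did not hold up when libraries were left out: the first was lost without any 1 of 7 libraries (0 h replicates 1, 2 and 3, 12 h replicates 1 and 2, 18 h replicates 2 and 3) and the second without any 1 of 8, the same and 18 h replicate 1. The adjusted p reached 0.094 and 0.134 in these exact permutation tests. Both were also lost without arrays of letter b or c. At 30 to 72 h none of the 5 passed, with changes from -0.23 to +0.08 and adjusted p-values from 0.513 to 0.95 in the exact permutation tests.

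**Figure D3:**
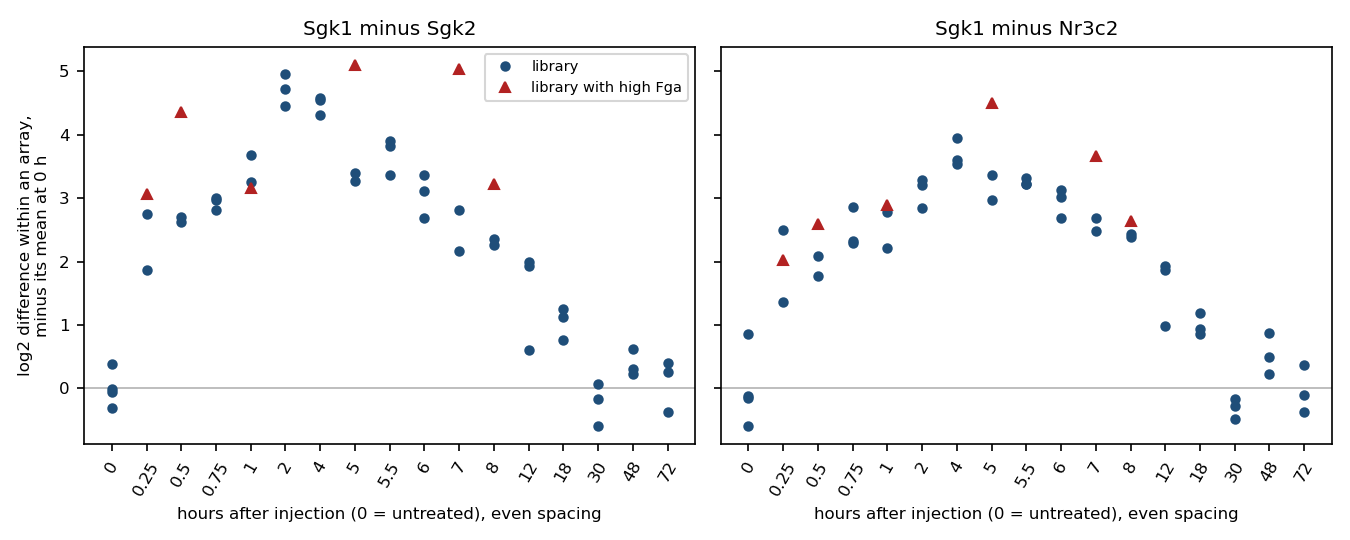
Log2 difference of Sgk1 minus Sgk2 (left) and Sgk1 minus Nr3c2 (right) within each array, less its mean at 0 h. The horizontal axis gives the 17 times with even spacing, each point is a library, triangles are the 6 libraries with high Fga and the line marks the untreated mean. Both differences are above all 4 untreated libraries in each library up to 18 h, and 5 h replicate 2 and 7 h replicate 3 stand above the others of their times.

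Scnn1a, the alpha subunit without which the channel conducts little sodium, first passed the test at 4 h, where Sgk1 had passed from 0.25 h. The brighter probe set of Scnn1a read 107, 140.1, 149 and 288 at 0 h, with replicate 4 above the other 3, as it also was for Sgk1. At 2 h it read 228, 91.7 and 218, within the untreated range or below it, and at 4 h 559, 369 and 469.7, clear of it. At 6 h it read 513, 624 and 463 and at 8 h 596, 229 and 273.

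Against 0 h Scnn1a differed by +0.06 ± 0.34 at 2 h (adjusted p = 0.966, limma) and by +1.48 ± 0.34 at 4 h, 2.79-fold (adjusted p = 0.00255). These times were not tested against each other. Scnn1a rose at 4, 5.5, 6 and 7 h, most at 6 h (+1.68 ± 0.34, 3.21-fold, adjusted p = 8.56e-04). The calls at 4 and 6 h held with any 1 library left out. That at 5.5 h was lost without 0 h replicate 1, 5.5 h replicate 2 or 5.5 h replicate 3 (adjusted p up to 0.155), and that at 7 h without any 1 of 18 libraries, among them all 3 of 7 h (up to 0.156). Over 5 to 8 h the difference was +1.23 ± 0.25 (adjusted p = 5.73e-04), and 11 of 15 libraries lay above the highest untreated one.

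For 2 to 4 h Scnn1a stood at +0.77 ± 0.29 with an adjusted p of 0.0799 in limma. It passed under 4 of 11 alternatives, with array weights (0.00462), with a replicate block (0.0265, a fit in which 0 h replicate 4 drops out), without arrays of letter b or c (0.036) and without the high-Fga libraries (0.049), and the adjusted p ran up to 0.113. The last of these 4 removed no library of 0, 2 or 4 h and left the difference at +0.77. The dimmer probe set, below the filter, read 21.9, 12.6, 15.3 and 67.0 at 0 h, 117.6, 109.5 and 123 at 4 h and 128, 128 and 85.0 at 6 h. Its values at 4 and 6 h were all above the untreated range. It repeated poorly, at 1.70 and 81.3 on the 2 arrays of 5 h replicate 1, where the brighter probe set gave 358 and 358.

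Nedd4l, the ligase that opposes the channel, was higher at 2 and 4 h. It read 149, 142, 159.9 and 117.5 at 0 h, 216, 221 and 294 at 2 h, and 194, 336 and 216 at 4 h. All 6 libraries of 2 and 4 h lay above the untreated ones, and how many of all probe sets were so separated was not counted. At 5 h it read 181, 333 and 140.5, where the high value is replicate 2, the library with the highest Fga, and at 8 h 129, 125 and 89.97.

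Over 2 to 4 h Nedd4l rose by +0.74 ± 0.21, 1.68-fold (adjusted p = 0.0186, limma). The call was lost without 0 h replicate 4, 2 h replicate 3 or 4 h replicate 2 (adjusted p up to 0.0781) and with a replicate block (0.0835, with 0 h replicate 4 dropped), while the adjusted p went down to 5.96e-04 among the 11 alternatives. Of single times only 4 h passed (+0.75 ± 0.25, adjusted p = 0.0431), and 6 left-out libraries each ended that call: the 4 of 0 h, and replicates 2 and 3 of 4 h. From 2 to 4 h to 5 to 8 h Nedd4l fell by 0.62 ± 0.16 on the log2 scale (adjusted p = 0.0224), a call lost without 2 h replicate 3 or 4 h replicate 2 (up to 0.13). At 5 to 8 h it stood at +0.13 ± 0.19 (adjusted p = 0.753).

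Nr3c2, the receptor for aldosterone, fell. It read 141, 131, 170.1 and 108 at 0 h, 86.1, 95.6 and 87.4 at 2 h and 65.7, 67.4 and 55.1 at 4 h. All 6 libraries of 2 and 4 h were below the untreated ones, again without a count over all probe sets. At 5 h it read 107, 35.8 and 98.9, with the low value again in replicate 2, and at 30 h 128, 159 and 141.

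Over 2 to 4 h the difference was -0.80 ± 0.20, 1.74-fold lower (adjusted p = 0.00576, limma), and it passed with any 1 library left out. The single time of 4 h gave -1.03 ± 0.24, 2.05-fold lower (adjusted p = 0.00255). At 5 h the difference was -0.83 ± 0.24 (adjusted p = 0.0261), lost without 5 h replicate 2 (0.547) and without 0 h replicate 1 or 3. The 5 to 8 h window, -0.53 ± 0.17 (adjusted p = 0.0445), was lost without any 1 of 10 libraries (0 h replicates 1, 2 and 3; 5 h replicate 2; 5.5 h replicates 1 and 3; 6 h replicates 2 and 3; 7 h replicate 3; 8 h replicate 1), with an adjusted p up to 0.218, and under 4 of 11 alternatives. Without the 6 high-Fga libraries it was -0.36 (adjusted p = 0.0479).

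Hsd11b2, the enzyme that shields the receptor from natural glucocorticoids, had the narrowest range of time means of the 6, 0.87 on the log2 scale. It read 908, 812, 882 and 670.1 at 0 h, 527, 384 and 614 at 2 h and 852, 926 and 983 at 4 h. The 3 libraries of 2 h were below the untreated ones, and at 4 h 2 of 3 were above them. Only 2 h passed the test, at -0.69 ± 0.19, 1.62-fold lower (adjusted p = 0.0228, limma), and the call was lost without 0 h replicate 1 or 3 or 2 h replicate 1 or 2 (up to 0.211). No window against 0 h passed, with differences from -0.26 to +0.15 and adjusted p-values from 0.284 to 0.999.

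In the 6 libraries with high Fga, several of the genes stood at one end of their time. Sgk2 and Nr3c2 were each lower than both other libraries of the time in 6 of 6, Nedd4l was higher in 5 of 6, and Hsd11b2 was lower in 4. Sgk1 was lowest in 1 and highest in 1, and Scnn1a lowest in 2 and highest in 2. How many of all probe sets stood at one end in this way was not counted, so these counts may hold for many other genes. In 5 h replicate 2, Sgk2 read 57.2 against 186 and 248 in its time, Nr3c2 35.8 against 107 and 98.9, and Nedd4l 333 against 181 and 140.5, while Sgk1 read 3423 against 3135 and 3807. Aqp2, the vasopressin-regulated water channel of principal cells, read 142 in that library against 367 and 575, and was lowest of its time in 5 of the 6. Lcn2, a secreted protein known to rise in injured tubules, was highest of its time in 6 of 6. At 2 and 4 h, where all 6 libraries read at least 523 for Fga, Sgk2 and Nr3c2 were low and Nedd4l was high too. In 6 h replicate 1 Fga read 778, yet Sgk2 (273) and Nr3c2 (116.5) were the highest of their time and Nedd4l (168) was between the others. In 0.25 h replicate 1 Fga read 616, with Sgk2 at 176 and Nr3c2 at 108, both between the others, and Nedd4l highest at 226. The part of these signals in the changes of the 3 genes was not tested.

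**Figure D4:**
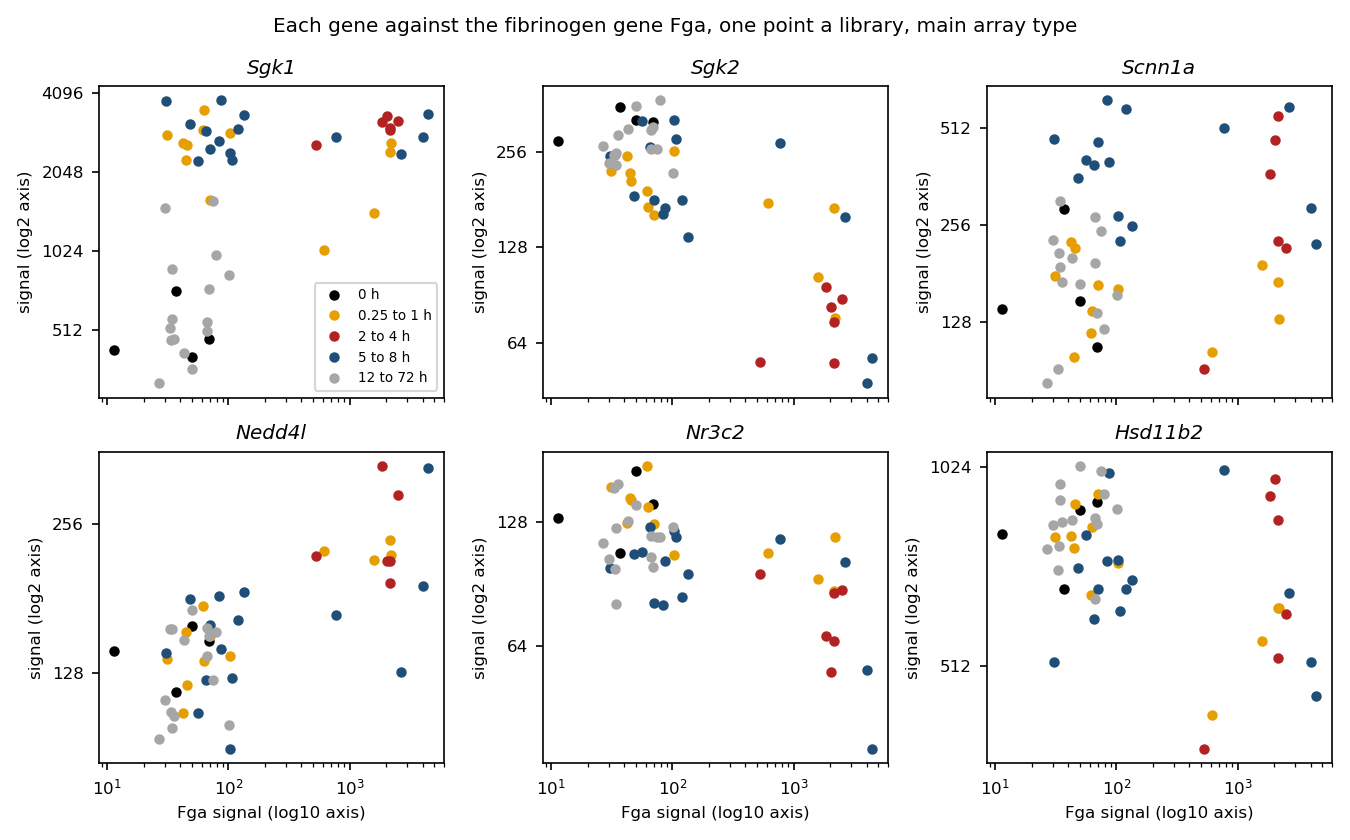
Signal of each gene (log2 axis) against the signal of Fga (log10 axis), each point a library of the main array type coloured by window. Libraries with Fga above 1000 come from 0.25 to 8 h. The 6 marked high within their time hold Sgk2 signals of 47.8 to 170.3, while Sgk1 is high in libraries of 0.5 to 8 h at low and high Fga alike.

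The window of 5 to 8 h was also set against 30 to 72 h, a comparison that uses no untreated library. Sgk1 was higher at 5 to 8 h by +2.63 ± 0.12 (adjusted p = 2.4e-20, limma) and Scnn1a by +1.10 ± 0.19 (adjusted p = 1.71e-05). Sgk2 was lower by 0.61 ± 0.21, Nr3c2 by 0.36 ± 0.13 and Hsd11b2 by 0.27 ± 0.10 (differences of -0.61, -0.36 and -0.27, adjusted p = 0.0277, 0.0389 and 0.0496). Thus 2 of 6 were higher and 3 lower, where 12.5% of all probe sets were higher and 13.8% lower. Leaving out 1 library ended the call of Sgk2 in 2 of 52 fits (5 h replicate 2 and 48 h replicate 1), of Nr3c2 in 12 and of Hsd11b2 in 38, with adjusted p-values up to 0.0561, 0.101 and 0.125. Of 10 alternatives, 1 ended the call of Sgk2 (without arrays of letter b or c, adjusted p = 0.136), 4 that of Nr3c2 and 6 that of Hsd11b2. Nedd4l, at +0.25 ± 0.14, did not pass (adjusted p = 0.177).

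On the second array type, 5 of the 6 genes were measured, at 0, 2 and 6 h. Sgk1 read 176, 121, 169 and 313 at 0 h, 1496, 818 and 1276 at 2 h and 1331, 1316 and 1103 at 6 h, with no overlap. It rose by +2.64 ± 0.30 at 2 h, 6.23-fold, and by +2.74 ± 0.30 at 6 h, 6.68-fold (adjusted p = 5.49e-04 and 2.87e-04, limma, on the log2(signal + 3.56) scale). The main type gave +2.55 and +2.42 at these times. The tables were scaled separately and labels do not say whether they share RNA.

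Sgk2 read 217, 266, 263 and 225 at 0 h on the second type, 107, 99.7 and 111 at 2 h and 145, 152 and 119.7 at 6 h. Libraries of both times lay below the untreated ones. It fell at 2 h by 1.17 ± 0.18 on the log2 scale (adjusted p = 0.00285, limma). At 6 h the difference was -0.79 ± 0.18 with an adjusted p of 0.0395, which became 0.0949 with a replicate block (0 h replicate 4 dropped) and was lost in 8 of 10 fits that left out 1 library (up to 0.207). Hsd11b2 read 1077, 1130, 1193 and 799 at 0 h and 615, 457 and 719 at 2 h, a difference of -0.82 ± 0.24 (adjusted p = 0.0495) that was also lost in 8 of 10 such fits (up to 0.132) and under 5 of 8 alternatives.

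Scnn1a on the second type read 134, 199.6, 162 and 273 at 0 h, 232, 79.6 and 223 at 2 h and 483, 445 and 492 at 6 h. All 6 h libraries were above the untreated ones, yet +1.33 ± 0.35 gave an adjusted p of 0.085 in limma (0.0136 to 0.127 over 8 alternatives). Replicate 2 of 2 h had the lowest Sgk1, Scnn1a and Hsd11b2 of its time on both array types. The brighter Nr3c2 probe set read 77.0, 49.5, 59.3 and 53.2 at 0 h and stood at -0.41 ± 0.23 at 2 h and -0.41 ± 0.23 at 6 h, neither past the test (adjusted p = 0.263 and 0.621). The dimmer one read 19.5 to 37.7 at 0 h, 6.64 to 17.9 at 2 h and 3.62 to 29.2 at 6 h. Of the 5 members tested 1 rose and 2 fell at 2 h, beside 4.82% and 4.98% of 5244 probe sets, and 1 rose and 1 fell at 6 h, beside 1.56% and 0.782%. No member differed between 2 and 6 h, where 0.686% of all probe sets rose and 0.744% fell.

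A list of 41 other genes of the pathway was followed on the main type, of which 35 had a named probe set and 33 were tested. In the 5 windows 4, 5, 5, 0 and 0 of the 33 rose and 0, 3, 2, 0 and 0 fell, beside 0.62%, 5.17%, 4.98%, 0.284% and 0% of all probe sets that rose and 0.042%, 4.8%, 4.73%, 0.105% and 0% that fell. The list was chosen with earlier results of these data known and includes glucocorticoid-induced genes such as Tsc22d3. Its counts therefore describe the listed genes alone and do not test the sodium pathway. The 4 at 0.25 to 1 h became 2 without 0 h replicate 2 and with a replicate block, in which 0 h replicate 4 drops out. The median difference of the list was -0.02, +0.03 and +0.07 in the windows to 8 h, against -0.03, -0.07 and -0.03 over all probe sets tested. Kcnma1 and Mllt3 had probe sets below the filter.

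In all, 7 genes of the list rose in at least 1 window. Tsc22d3, which encodes the glucocorticoid-induced leucine zipper, rose by +1.30, +2.31 and +2.04 in the windows to 8 h, and Per1, a clock gene and aldosterone target that promotes Scnn1a transcription, by +2.50, +3.26 and +2.79. Fkbp5, a co-chaperone that lowers steroid receptor binding, rose by +0.70, +2.95 and +3.13, the first of these lost without 0 h replicate 1, 2 or 4 or replicate 3 of 0.5, 0.75 or 1 h (adjusted p up to 0.329, limma). Usp2, a deubiquitinase known to counter Nedd4l at the channel, stood at +0.74 at 0.25 to 1 h (adjusted p = 0.603, limma) and rose by +2.24 at 2 to 4 h and +1.62 at 5 to 8 h. Edn1, whose endothelin peptide inhibits sodium uptake in the collecting duct, rose only in the 0.25 to 1 h window among the 5, by +0.67 ± 0.14 (adjusted p = 0.00771), a call lost without 0 h replicate 2 or 4 (up to 0.107). The chaperone Hsp90ab1 rose by +0.45 at 2 to 4 h, which was lost without 0 h replicate 1, 2 h replicate 3 or 4 h replicate 2 (up to 0.0956), and Ndrg1, a substrate of Sgk1, by +0.44 at 5 to 8 h. A dimmer probe set of Hsp90ab1 stood at +0.48 at 2 to 4 h and did not pass (adjusted p = 0.327, limma).

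Fewer genes fell. Prss8, a protease that activates the channel by cleavage, fell by 1.12 ± 0.19 on the log2 scale at 2 to 4 h and by 0.84 ± 0.17 at 5 to 8 h, from a mean signal of 596 at 0 h to 270.2 and 331. Nr3c1, the glucocorticoid receptor, fell by 0.79 ± 0.12 and 0.63 ± 0.10 in these windows. Kcnj1, the potassium channel of the thick limb and collecting duct, fell at 2 to 4 h by 1.00 ± 0.33 (adjusted p = 0.0494, limma), a call that ended in 39 of 52 fits with 1 library left out (up to 0.138).

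The other channel subunits passed in no window against 0 h. The beta and gamma subunits Scnn1b and Scnn1g stood at -0.15 ± 0.11 and -0.03 ± 0.17 at 2 to 4 h and at -0.15 ± 0.10 and +0.05 ± 0.15 at 5 to 8 h, where Scnn1a stood at +1.23. The 6 brightest genes that passed in no window against 0 h were the pump subunit Atp1b1 and its regulator Fxyd2, the glucocorticoid-activating enzyme Hsd11b1, the adaptor proteins Ywhae and Ywhaq and the kinase Wnk1, with differences between -0.23 and +0.16 at 2 to 4 and 5 to 8 h by their brightest probe sets. At 2 to 4 h dimmer probe sets of Wnk1 (-0.68) and Scnn1g (-0.31) did not pass (adjusted p = 0.223 and 0.258, limma). A dimmer probe set of Nedd4 fell, at -0.35 (adjusted p = 0.0455), while its brightest, at -0.64, did not pass (adjusted p = 0.303). Scnn1b, Scnn1g and Nedd4, and in the next comparison Furin, Fkbp4, Cul3 and Rictor, were added to the named genes after their values were seen.

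Between 5 to 8 h and 30 to 72 h 8 of the 33 genes were higher and 6 lower, beside the 12.5% and 13.8% of all probe sets. Scnn1b was lower at 5 to 8 h, at -0.25 ± 0.07 (adjusted p = 0.0101, limma), where Scnn1a was higher, and the call held with any 1 library left out. Fxyd2 was lower, at -0.26, and Hsd11b1 higher, at +0.27 (adjusted p = 0.0323 for each), calls that ended in 9 and 6 of 52 fits with 1 library left out. The other genes lower were Prss8, Nr3c1, the protease Furin and the co-chaperone Fkbp4. Also higher were Tsc22d3, Per1, Fkbp5, Usp2, Ndrg1, the ubiquitin ligase scaffold Cul3 and Rictor, a subunit of the kinase complex that activates Sgk1. The calls of Furin and Rictor ended in 15 and 30 of 52 such fits.

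**Figure D5:**
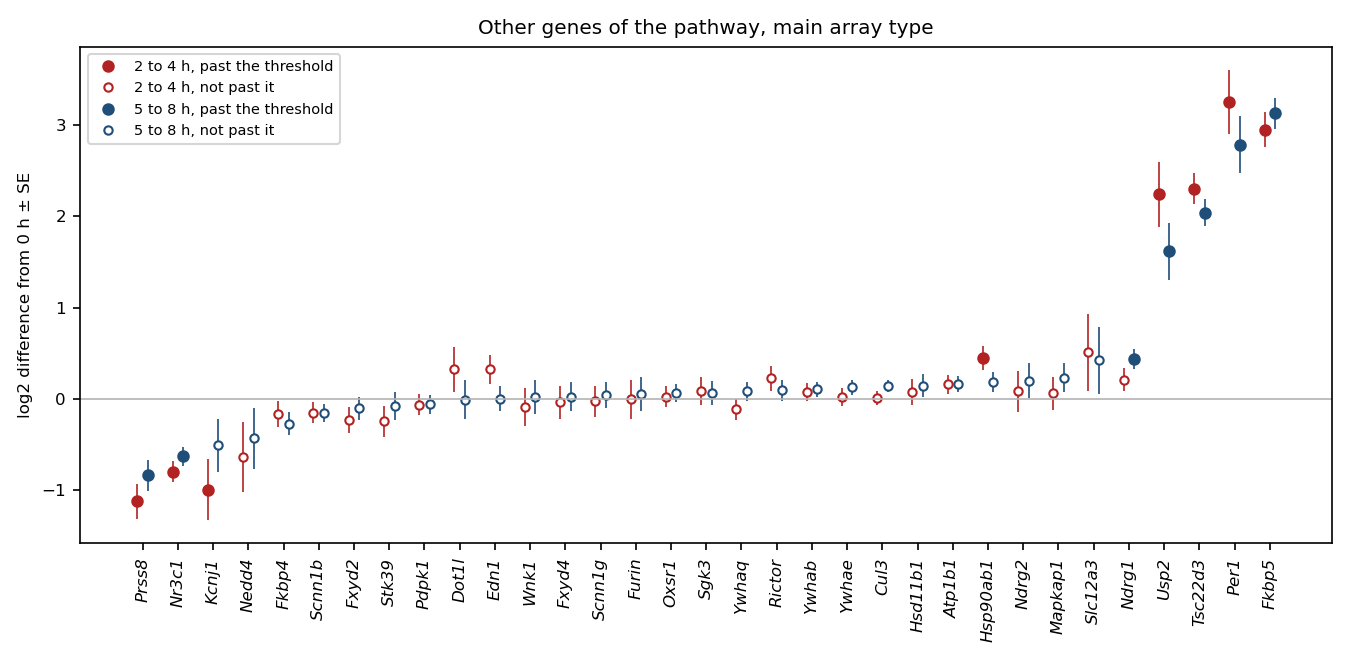
Log2 difference from 0 h, with its SE, of the 33 tested genes of the wider pathway on the main array type at 2 to 4 h and 5 to 8 h. Filled points passed the adjusted threshold of 0.05 in limma and open points did not, and genes are ordered by their difference at 5 to 8 h. Prss8 and Nr3c1 are at the lower end, Fkbp5, Per1, Tsc22d3 and Usp2 at the upper end.

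The time courses most like that of Sgk1 were those of Ccn2, Vmp1, Pxdc1, Per1 and Errfi1, by Pearson's r over the 17 time means of 7105 genes. Ccn2, a secreted matrix-associated growth factor, had r = 0.976 and a mean signal of 367 at 0 h, 3446 at 4 h and 288 at 30 h. Errfi1, an inhibitor of the epidermal growth factor receptor, had r = 0.941 and read 725, 2330 and 608 at these times. For Sgk2 the closest were Anks4b (r = 0.954), Palm3, Ccdc6, Hsd17b1 and Exoc3l2 (r = 0.931). Anks4b, a scaffold of the brush border, read 260.1 at 0 h, 96.8 at 4 h and 285 at 30 h. Points of a course are means of the same libraries for all genes, so these values describe likeness alone. By Spearman's rho Ccn2 and Errfi1 ranked 2 and 4 for Sgk1, while Per1, Pxdc1 and Vmp1 ranked 19, 29 and 66. For Sgk2, Anks4b, Palm3, Hsd17b1, Ccdc6 and Exoc3l2 ranked 1, 2, 5, 6 and 27. Among the members, Sgk1 and Sgk2 had r = -0.70 over the 17 time means, Sgk2 and Nedd4l r = -0.88, and Sgk2 and Nr3c2 r = 0.68. Sgk2 had r = -0.25 with Scnn1a and 0.54 with Hsd11b2. Sgk1 had r = 0.50 with Scnn1a, 0.57 with Nedd4l, -0.53 with Nr3c2 and -0.44 with Hsd11b2. Where these values stand among those of the 7105 genes is not given. Each of the 5 genes most like Sgk1 had 1 start window in the RefSeq table, and the TGTTCT hexamer was in 1 of the 5 windows, that of Vmp1.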

How the data were processed

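RNA of rat kidney was measured on 2 Affymetrix array types. The deposited values are intensities on a linear scale that the authors scaled per array: the mean of each array without the lowest and highest 2% of its values was 150.03 to 150.04 on the main type and 150.19 to 150.23 on the second, as the deposited files show. How probe brightness became these intensities is a step not given in the sources used here. Here, 5 h replicate 1 (arrays a and b) was averaged, the 10th percentile of a table (7.63 and 3.56) was added, and log2 was taken. Tests covered the 9520 and 5244 probe sets (no controls) with a mean log2 level no lower than the 40th percentile, a signal of 52.3 and 25.3. Tests used limma 3.58.1 in R 4.3.3 (time as a factor, trended moderation, Benjamini-Hochberg threshold 0.05), checked on simulated data, and exact permutation in Python 3.11.15. The number of arrays limits the precision.

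The genes and lists were chosen with earlier results of these data known. Named were all members, listed pathway genes past the threshold, the 6 brightest others, and the 5 genes most like Sgk1 and Sgk2 in time course; the brightest probe set stood for a gene. Symbols follow the platform annotation with updates by gene identifier (GRCr8 table). Samples were grouped by the labelled time. On the second type, deviations of 9 same-number pairs from their time means correlated weakly, with r from 0.145 to 0.278. The mean r of pairs with other numbers there was -0.081. Same-number pairs of the main type had r from -0.53 to 0.49, with a mean of 0.061. The labels give the numbers without a meaning, and fits used them only where a replicate block is named.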

Additional observations from a re-analysis of the deposited data

Results flagged for a closer look

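For some members the difference at 5 to 8 h was unlike that of another window, by a test of the windows against each other. Between 5 to 8 h and 30 to 72 h the tested difference was +2.63 for Sgk1, +1.10 for Scnn1a, -0.61 for Sgk2, -0.36 for Nr3c2 and -0.27 for Hsd11b2. Between 5 to 8 h and 2 to 4 h it was +1.19 for Sgk2 and -0.62 for Nedd4l, while it did not pass for Sgk1 (-0.09, adjusted p = 0.794, limma), Scnn1a (+0.46, adjusted p = 0.24), Nr3c2 (+0.27, adjusted p = 0.339) or Hsd11b2 (+0.01, adjusted p = 0.982). Nedd4l did not pass against 30 to 72 h (+0.25, adjusted p = 0.177). No member had a library far from the other 3 at 0 h by Dixon's test, and groups of 3 were not tested that way. With n = 4 (critical value 0.829) that test can miss all but very wide gaps. On the main type 0 h replicate 4 had the highest Sgk1, Sgk2 and Scnn1a and the lowest Nedd4l, Nr3c2 and Hsd11b2. On the second type it had the highest Sgk1 and Scnn1a and the lowest Hsd11b2.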

How the results depend on the processing

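Sgk1 passed against 0 h at 0.25 to 1, 2 to 4 and 5 to 8 h, and Sgk2 and Nr3c2 at 2 to 4 h and Scnn1a at 5 to 8 h, under all 11 alternatives and with any 1 library left out. The alternative without the high-Fga libraries removed none of 2 or 4 h. It therefore could not change the differences of 2 to 4 h from 0 h. Of 1310 alternative values for 108 results, 1181 kept their direction and their side of the threshold, and none of the 30 that changed sign passed it. The values that changed are given below, and their cause was not tested except where the setting itself removes libraries or probe sets. Settings added after the values were seen are those without the high-Fga libraries and without 2 and 4 h. Array number limits all of these, and the 4 libraries at 0 h are shared by every comparison with them.

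With only a window and 0 h in the fit, Sgk1 at 12 to 18 h gave 1.06 and Nr3c2 at 5 to 8 h -0.53 (adjusted p = 0.168, limma), neither passing, while 266 probe sets were lower at 5 to 8 h, 13 higher at 12 to 18 h and 1 pathway gene lower at 12 to 18 h. With array weights, Sgk2 at 0.25 to 1 h (-0.81) and 5 to 8 h (-0.59), Scnn1a at 2 to 4 h (0.83) and at 6 h on the second type (1.28), and Nr3c2 at 5 to 8 against 2 to 4 h (0.45) came to pass. Nr3c2 (-0.21) and Hsd11b2 (-0.23) at 5 to 8 against 30 to 72 h and Hsd11b2 at 2 h on the second type (-0.67) no longer did. With these weights the sign turned, without a call, for Sgk1 (-0.12) and Nr3c2 (-0.15) at 6 minus 2 h and Scnn1a at 2 h (0.095) on the second type, and for Hsd11b2 at 5 to 8 against 2 to 4 h (-0.016). The weights gave 104 higher and 42 lower probe sets at 0.25 to 1 h, 1025 and 1378 at 2 to 4 h, 712 lower at 5 to 8 h, 32 lower at 12 to 18 h and 1 higher at 30 to 72 h.

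Without the high-Fga libraries, Sgk2 at 0.25 to 1 h (-0.64) and 5 to 8 h (-0.46), Scnn1a at 2 to 4 h (0.77) and Nr3c2 at 5 to 8 against 2 to 4 h (0.44) came to pass. Nr3c2 (-0.19) and Hsd11b2 (-0.21) at 5 to 8 against 30 to 72 h no longer did, Nedd4l at 5 to 8 h turned to -0.0066, and 10, 719 and 23 probe sets were lower at 0.25 to 1, 2 to 4 and 12 to 18 h. No library of 2 or 4 h was among those removed, and the difference of Scnn1a at 2 to 4 h was the same as with them. Without 2 and 4 h the F test no longer passed for Sgk2 (adjusted p = 0.27), Nedd4l (0.38), Nr3c2 (0.25) or Hsd11b2 (0.11).

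Without arrays of letter b or c, calls were lost for Sgk2 (-0.60) and Hsd11b2 (-0.24) at 5 to 8 against 30 to 72 h, Sgk2 (1.13) and Nedd4l (-0.69) at 5 to 8 against 2 to 4 h, and Nr3c2 at 5 to 8 h (-0.53). They were also lost in the F test for Nedd4l, Nr3c2 and Hsd11b2 (adjusted p = 0.18, 0.084 and 0.10, limma) and for Sgk1 minus Nedd4l (1.01) and minus Hsd11b2 (0.78) at 12 to 18 h. Scnn1a at 2 to 4 h passed (0.96). Signs turned without a call for Nedd4l (0.0071), Hsd11b2 (-0.0089) and Sgk1 minus Nedd4l (-0.0082) at 30 to 72 h and for Hsd11b2 at 5 to 8 against 2 to 4 h (-0.061), and 281 probe sets were lower at 2 to 4 h.

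Without the filter, Nr3c2 at 5 to 8 h (-0.53) and against 30 to 72 h (-0.36), Hsd11b2 against 30 to 72 h (-0.27) and at 2 h on the second type (-0.82) lost the threshold, and 2 probe sets were lower at 0.25 to 1 h. With equal medians the same values were -0.49, -0.31, -0.23 and -0.76, none passing, and the signs of Nr3c2 at 6 minus 2 h on the second type (-0.028) and Hsd11b2 at 5 to 8 against 2 to 4 h (-0.014) turned. With quantile normalization these were -0.037 for Nr3c2 at 6 minus 2 h and -0.80 for Hsd11b2 at 2 h on the second type, and with a quarter-size pseudocount the latter was -0.82. With 4 times the pseudocount Sgk2 at 5 to 8 h passed (-0.71).

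With a replicate block, in which 0 h replicate 4 drops out, Sgk2 at 6 h on the second type (-0.83), Nedd4l at 2 to 4 h (0.66) and Hsd11b2 at 5 to 8 against 30 to 72 h (-0.27) lost the threshold and Scnn1a at 2 to 4 h passed (1.04). The block turned the sign, without a call, of Sgk1 (0.071) and Hsd11b2 (-0.075) at 30 to 72 h and Scnn1a at 0.25 to 1 h (0.22). It gave 35 higher and 0 lower probe sets and 2 higher pathway genes at 0.25 to 1 h. It changed no other call, and on the main type same-number samples were little alike (mean r of 0.061).

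Leaving out 1 library at a time changed the call or the sign of these results. Against 0 h, values ran from -0.20 to 0.071 for Sgk1 at 30 to 72 h, -0.90 to -0.64 for Sgk2 at 5 to 8 h, 0.63 to 0.82 for Nedd4l at 2 to 4 h, -0.18 to 0.0067 for Nedd4l at 12 to 18 h, -0.63 to -0.43 for Nr3c2 at 5 to 8 h and -0.075 to 0.070 for Hsd11b2 at 30 to 72 h. For Scnn1a they ran from -0.23 to 0.22, 0.59 to 1.04, -0.062 to 0.39 and -0.059 to 0.40 at 0.25 to 1, 2 to 4, 12 to 18 and 30 to 72 h. For 5 to 8 against 30 to 72 h they were -0.71 to -0.45 for Sgk2, -0.41 to -0.27 for Nr3c2 and -0.32 to -0.23 for Hsd11b2, and against 2 to 4 h -0.69 to -0.50 for Nedd4l and -0.085 to 0.081 for Hsd11b2. The adjusted p of the F test ran from 0.0078 to 0.074 for Nedd4l and 0.0067 to 0.067 for Nr3c2. On the second type they were -0.86 to -0.69 for Sgk2 at 6 h, -0.46 to 0.29 for Scnn1a and -0.96 to -0.64 for Hsd11b2 at 2 h, and -0.15 to 0.28 for Sgk1 and -0.11 to 0.20 for Nr3c2 at 6 minus 2 h. Sgk1 minus Nedd4l and minus Hsd11b2 ran from 1.00 to 1.41 and 0.78 to 1.18 at 12 to 18 h. At 30 to 72 h Sgk1 minus Sgk2, Nedd4l, Nr3c2 and Hsd11b2 ran from -0.022 to 0.21, -0.13 to 0.28, -0.13 to 0.35 and -0.26 to 0.15. Probe sets higher ran from 36 to 70 at 0.25 to 1 h, 13 to 29 at 12 to 18 h and 0 to 1 at 30 to 72 h, those lower from 0 to 7, 273 to 570, 273 to 516 and 6 to 14 in the windows to 18 h, and pathway genes higher at 0.25 to 1 h from 2 to 4.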
